A study of Mus musculus with 3 samples.

Results

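Pcp2, Prkca and Trpm1 are 3 genes by which rod bipolar cells and the wider class of ON bipolar cells of the retina are recognised. They were read by 4 probe sets, of 10833 on the array that carry a single gene symbol, and make up 3 of 8251 named genes. Every probe set whose platform symbol was exactly 1 of these 3 names was taken, by name and not by signal. Pcp2 had 2 probe sets, 102376_r_at and 162452_at, Prkca had 102299_at and Trpm1 had 102251_at. The retinas came from wild-type mice at postnatal day 10, littermates of Rp1-/- mice, on a mixed 129/SvEv and C57BL/6 background. RNA of the neural retinas of 3 to 4 mice, taken between 1 and 2 pm, was pooled for each of 3 Affymetrix U74Av2 arrays. All 3 pools belong to this single wild-type group, so no groups were compared and no test was made, and the pool numbers only name the pools. The titles of pools 2 and 3 hold the name Rp1, but all 3 descriptions call the mice wild type, which decided the group. Whether the pools came from separate mice is not stated in the labels, so the spread between pools may be in part technical.

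Rod bipolar cells carry the signal of rods to the inner retina. In darkness, glutamate released by photoreceptors acts on the receptor mGluR6 of ON bipolar dendrites, and its G protein, Go, keeps the cation channel TRPM1 closed. In light, glutamate falls, regulators of G protein signalling switch Go off, and TRPM1 opens. PKC alpha, the product of Prkca, is the classical stain for rod bipolar cells and shapes the course of their light response. Pcp2, also called L7, is made in ON bipolar cells and in cerebellar Purkinje cells and binds alpha subunits of the Gi and Go class through its GoLoco domain. Trpm1 was first described in melanocytes under the name melastatin. Mouse bipolar cells are among the last retinal neurons to be born, and at this age the eyes are still closed.

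The sequences just before the transcript starts of the 3 genes are shown as a description, and their part in the signals was not tested. Each is the 250 bases before a start listed by RefSeq (GRCm38.p6), read 5′ to 3′ on the strand of the gene, and all 3 genes matched by symbol. Capitals mark GGATTA, the core recognised by the homeodomain factors Crx and Otx2, TAATTA, another homeodomain core, and CACGTG, an E-box. Both strands were searched, TAATTA and CACGTG read the same on both, and no matches overlapped.
Pcp2, first of 4 listed starts, chr8:3625548-3625797, minus strand: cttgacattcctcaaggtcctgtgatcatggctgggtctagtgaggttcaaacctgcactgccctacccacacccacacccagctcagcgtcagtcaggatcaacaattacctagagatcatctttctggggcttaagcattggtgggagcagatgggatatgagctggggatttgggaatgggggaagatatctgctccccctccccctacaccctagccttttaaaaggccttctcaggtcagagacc
Prkca, only listed start, chr11:108343889-108344138, minus strand: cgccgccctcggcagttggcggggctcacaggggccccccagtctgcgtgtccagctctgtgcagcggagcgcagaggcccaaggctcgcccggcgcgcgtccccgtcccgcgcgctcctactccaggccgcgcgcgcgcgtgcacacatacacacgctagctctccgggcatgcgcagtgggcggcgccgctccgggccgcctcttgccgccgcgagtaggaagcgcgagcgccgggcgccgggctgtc
Trpm1, first of 2 listed starts, chr7:64153585-64153834, plus strand: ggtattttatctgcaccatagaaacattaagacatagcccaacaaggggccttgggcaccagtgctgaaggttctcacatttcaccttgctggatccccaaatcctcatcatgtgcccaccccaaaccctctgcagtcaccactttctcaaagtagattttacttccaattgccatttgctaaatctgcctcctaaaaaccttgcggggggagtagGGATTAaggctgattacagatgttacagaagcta
Trpm1, second of 2 listed starts, chr7:64185209-64185458, plus strand: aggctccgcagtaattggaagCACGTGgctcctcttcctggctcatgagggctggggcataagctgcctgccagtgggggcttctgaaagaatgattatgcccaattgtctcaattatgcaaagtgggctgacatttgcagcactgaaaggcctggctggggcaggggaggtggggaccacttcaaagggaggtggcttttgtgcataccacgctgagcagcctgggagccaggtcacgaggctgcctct

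The first Trpm1 window held GGATTA from 34 to 29 bases before the start. The second Trpm1 window held CACGTG from 229 to 224 bases before its start. Neither the Pcp2 window shown nor the Prkca window held any of the 3 motifs in either direction. The third listed Pcp2 start, not shown, had TAATTA from 101 to 96 bases before it. Of 32851 windows of the same length in the table, 6.25% held GGATTA, 4.84% TAATTA and 6.02% CACGTG. The windows also differed in base composition. Prkca had 76.8% G and C with 39 CG pairs, the Pcp2 window shown had 52.8% with 1, and the Trpm1 windows had 46% with 1 and 57.2% with 4, against medians of 52.4% and 6 over all windows. A match is a description of letters and not a binding site, and these arrays do not tell transcripts of different starts apart.

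Signals are in the deposited intensity units. Each array was given a background limit, the 90th percentile of the signals of 121 probe sets of 97 genes restricted to tissues other than retina, which gave 390.8, 440.4 and 298.8 on arrays 1, 2 and 3. Above these limits were 4655, 4341 and 5518 probe sets that are not controls. The limit of array 3 was the lowest, so a signal can be above background in pool 3 only without being higher there. A signal under the limit is called not above background, which does not mean that the gene was silent. Probe sets differ in how strongly they bind their transcript, so no member was ranked against another. Of the 4 member probe sets, 2 were above the limit on all 3 arrays, against 31.5% of 12422 probe sets that are not controls. Of 7 fixed markers of rod and ON bipolar cells 4 were measured, and 3 of these were above the limit on all arrays, against 38.5% of named genes. They were Isl1 and the members Pcp2 and Prkca, so only Isl1 adds to the member count. The fourth was Trpm1. Among the markers not measured, Grm6 and Cabp5 lack a named probe set here and were not analysed.

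On its _r_at probe set, Pcp2 was well above background and unequal between the pools. The _r_at set read 1425.3, 2061.6 and 3515.4 in pools 1, 2 and 3, a mean of 2334 ± 1071 (SD, n = 3). The lowest pool was 3.65 times its background limit and the highest 11.8 times, so this probe set was well above background in every pool. Pool 3 exceeded pool 1 by 2.47-fold and pool 2 by 1.71-fold, and the SD of log2 signal was 0.65. The pools were far apart for a signal of this strength. Among 3913 probe sets above the limit on all arrays the median range over pools was 1.38-fold and the median SD of log2 signal 0.24. A range at least as wide as that of Pcp2 was seen for 82 of them (2.10%), and a range over 2-fold for 7.03%. In bulk tissue, a difference in the number of bipolar cells cannot be told apart from one in RNA per cell.

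The second Pcp2 probe set did not follow the first. The _at set read 307.3, 275.6 and 226.9 in pools 1, 2 and 3, a mean of 269.9 ± 40.5 (SD, n = 3), and was above the limit on no array, as were 52.9% of all probe sets. Its highest pool was the lowest of the _r_at set and its lowest pool the highest. Its signals were 0.79, 0.63 and 0.76 times the limits, so neither its level nor its order is a measurement of Pcp2 above background. The _r_at suffix of the bright set marks a set for which some of the manufacturer's rules for choosing probes were dropped. The Pcp2 signal above background and its higher level in pool 3 therefore both rest on a single probe set of this kind.

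Prkca was close to the background limit and similar in all pools. It read 442.6, 442.9 and 356.7 in pools 1, 2 and 3, a mean of 414.1 ± 49.7 (SD, n = 3). All 3 signals were above the limits, at 1.13, 1.01 and 1.19 times them, and in pool 2 the margin was 442.9 against 440.4. With the limit at the 95th percentile of the same probe sets, Prkca was above it on no array. Pools 1 and 2 were equal to within 1 unit, and pool 3 was the lowest. The range of 1.24-fold was narrower than the median of probe sets above the limit, and 71.8% of them had a range at least as wide. Prkca thus did not share the order of Pcp2, whose bright set was highest in pool 3.

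Trpm1 was dim and lowest in pool 1. Its signals in pools 1, 2 and 3 were 217.7, 357.6 and 422.5, a mean of 332.6 ± 104.7 (SD, n = 3). Only pool 3 was above its limit, at 1.41 times, while pools 1 and 2 stood at 0.56 and 0.81 times theirs. The limits were unequal: the pool 2 signal exceeds the 298.8 of array 3, and the pool 3 signal is under the 440.4 of array 2. As read the range was 1.94-fold, but with pool 1 set to its limit pool 3 was at least 1.08-fold higher, which is all that the signals above background show. Where the limit was set decided this count: Trpm1 was above it on all 3 arrays at the 75th percentile and on none at the 95th. Of 8509 probe sets not above the limit on all arrays, 59.7% had a range at least as wide as read.

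**Figure D1:**
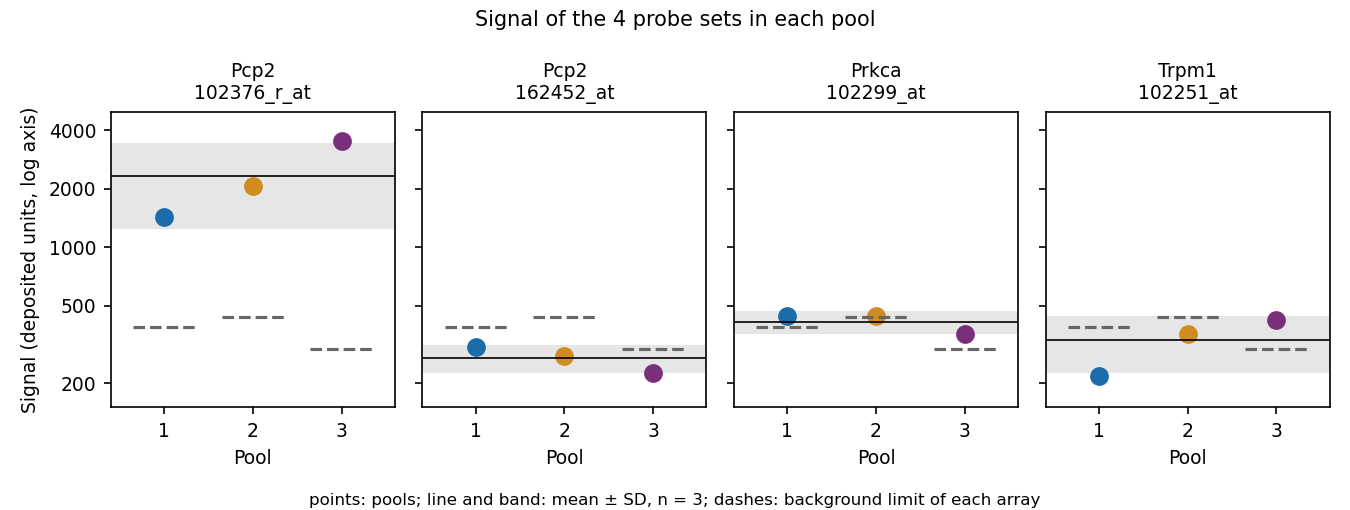
Signal (deposited units, log axis) of the 4 probe sets in pools 1, 2 and 3, with the mean as a line, the SD over 3 pools as a band and the background limit of each array as dashes. The Pcp2 _r_at set lies above the dashes in every pool and is highest in pool 3 at 3515.4, Prkca lies just above them, Trpm1 is above in pool 3 only, and the Pcp2 _at set lies below in all 3.

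**Figure D2:**
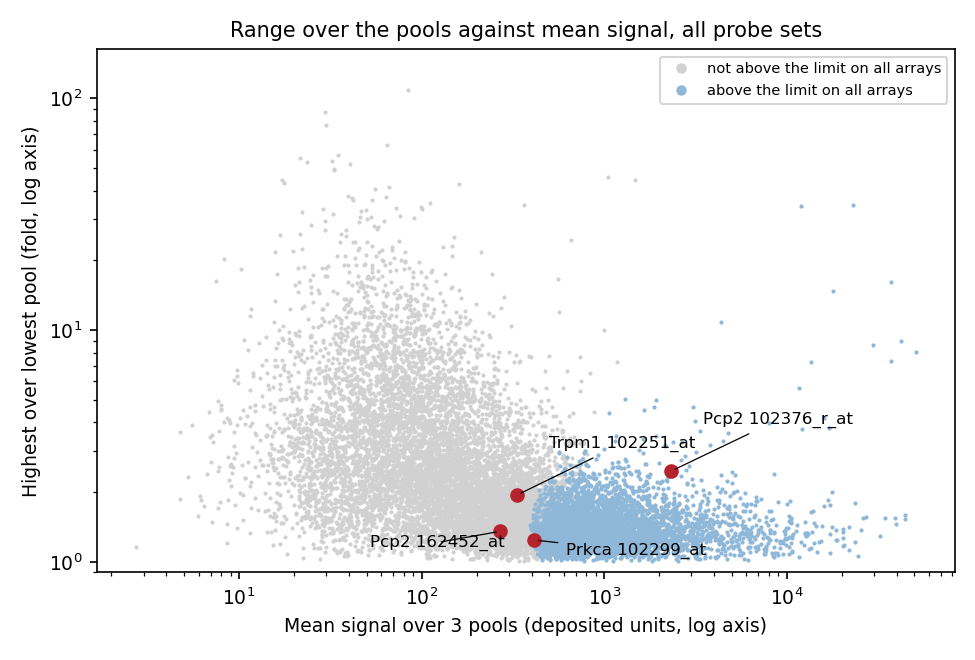
Highest over lowest pool (fold, log axis) against mean signal over 3 pools (deposited units, log axis) for all 12422 probe sets that are not controls, with signals under 1 set to 1, and the 4 members in red. The wide ranges lie mostly among dim sets, and the Pcp2 _r_at set, at 2.47-fold, lies at the upper edge of sets above the limit on all arrays, while Prkca, at 1.24-fold, lies inside them.

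The order over the pools can be put as the log2 signal minus its mean over the 3 pools. For the Pcp2 _r_at set this deviation was -0.61, -0.08 and 0.69 in pools 1, 2 and 3, lowest in pool 1 and highest in pool 3, an order seen for 13.4% of named genes above the limit on all arrays. For Trpm1 it was -0.56, 0.16 and 0.40 as read, with pools 1 and 2 not above background. For Prkca it was 0.10, 0.10 and -0.21. The Euclidean distance between these profiles was 0.38 between the Pcp2 _r_at set and Trpm1, 1.16 between the Pcp2 _r_at set and Prkca, 0.90 between Prkca and Trpm1, and 0.12 between Prkca and the Pcp2 _at set. As read, the 3 genes thus did not share 1 order over these pools. Of the 4 profiles, 2 rest wholly or partly on signals below background, and that of Prkca on signals close to the limits. Only the Pcp2 _r_at profile is well above background, so these profiles cannot decide whether the 3 genes moved together.

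Genes of other cell types also differed between the pools, and their values stand beside the Pcp2 result. Of the rod list, 10 of 10 measured genes were above the limit on all arrays, against 38.5% of named genes each taken by its brightest probe set. Of the 10, 8 were highest in pool 3, against 30.5% of named genes above the limit on all arrays. Its median deviation was -0.32, -0.07 and 0.51, in the same order as Pcp2, and its summed signal was 79613, 92076 and 143148. Sag, rod arrestin, read 22066, 24854 and 34554, and Gnat1, the rod transducin alpha subunit, read 1014.7, 1101.3 and 10970.1. Pdc, phosducin, differed little, at 21088, 23619 and 21313, and Gnb1, a G protein beta subunit of rods and of other neurons, read 7630, 14796 and 28821. Scaling by quantiles placed the highest signal of Sag and of Pde6b, a rod phosphodiesterase subunit, in pool 2 instead of pool 3. The Actb control transcript had 3′ over 5′ signal ratios that ran in the order of Pcp2 as well, at 1.20, 1.44 and 1.69, and those of Gapdh did not, at 0.95, 0.88 and 0.93. The part of rod content and of RNA ends in the Pcp2 result was not tested.

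Lens, pigment cell, blood and synapse genes did not follow the order of Pcp2 alike. As deposited, and on the brightest probe set of each, pool 3 was the highest and pool 2 the lowest for all 11 measured lens genes. Quantile scaling put Crygd and Cryge highest in pool 1. A second Crybb2 set, above the limit on all arrays at 1202.5, 1332.7 and 929.8, was instead highest in pool 2 and lowest in pool 3. The summed signal of the lens list, on the brightest sets, was 226816, 36700 and 423620. The crystallin genes Cryaa (30501, 4703 and 76094), Crygs (10984, 1624 and 56437) and Crybb2 (5915, 841.9 and 28968) and the lens aquaporin Mip (457.1, 69.5 and 1150.7, not above background in pool 2) lead this list. Among 6 red blood cell genes 2 were above the limit on all arrays, against 38.5% of named genes. They were Hba-a1 at 19101, 3410 and 12646 and Hbb-b2 at 2328, 883.1 and 1835, while Alas2 and Epor were above it on none. In the synapse list 6 of 8 measured genes were above it on all arrays, against 38.5% of named genes. Snap25 read 8064, 6430 and 9260, and Syt1 read 2506, 1977 and 1905. Vamp2 read 5189, 3649 and 4006 on its brighter probe set. None of these was in the order of Pcp2. A second Vamp2 set, above the limit on all arrays at 533.7, 544.8 and 546.6, had that order but was nearly flat. Stx1a was above the limit on 2 arrays. The part of lens and blood RNA in the Pcp2 and Trpm1 signals was not tested.

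Pigment cells bear on Trpm1, since melanocytes also make it. Of 12 listed pigment cell genes 9 were measured. None was above the limit on all arrays, against 38.5% of named genes, and 7 were above it on no array, against 44.5%. Tyr, tyrosinase, read 113.4, 97.3 and 179.5 and was above the limit nowhere, nor was Tyrp1. Dct, which acts in melanin synthesis, read 318.7, 596.4 and 604.9 and was above it in pools 2 and 3, and Pmel, a melanosome matrix protein, read 508.0, 348.2 and 777.1 and was above it in pools 1 and 3. The summed signal of the 9 genes was 1346, 2020 and 2215, a sum made largely of signals not above background. Only Dct had the order of Trpm1 as read, lowest in pool 1 and highest in pool 3. The part of pigment cells in the Trpm1 signal was not tested.

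**Figure D3:**
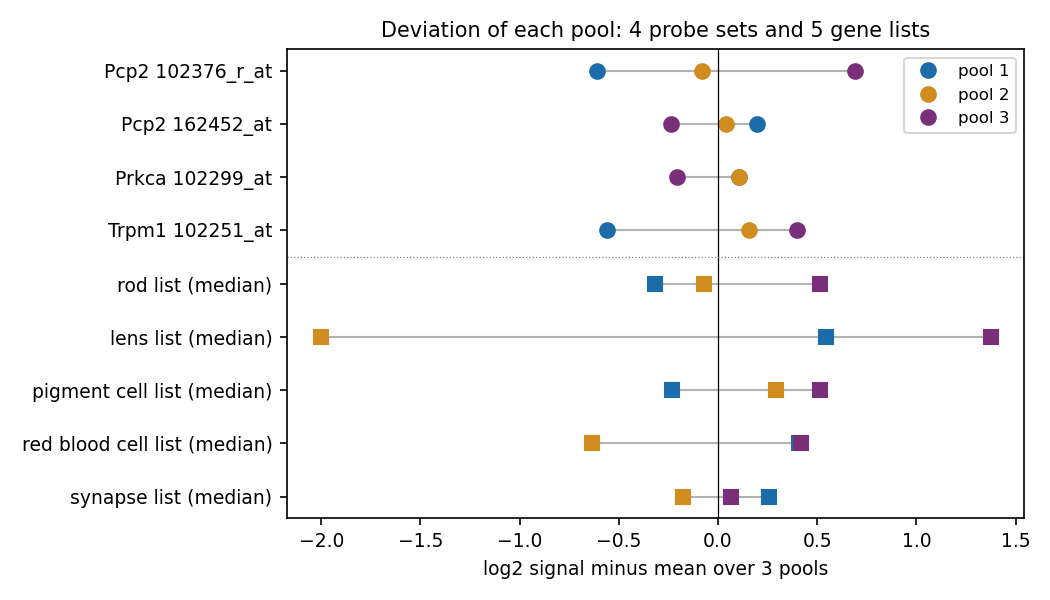
Log2 signal minus its mean over the 3 pools for the 4 member probe sets (circles) and the median of that deviation over the measured genes of 5 lists (squares). The Pcp2 _r_at set, Trpm1, the rod list and the pigment cell list are lowest in pool 1 and highest in pool 3. Of the 9 pigment cell genes, 7 were above background on no array, against 44.5% of named genes. Prkca and the Pcp2 _at set are lowest in pool 3, and the lens list, at -2.00 in pool 2, spans the most.

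The ON bipolar synapse and its cascade were measured in part. Of 18 listed genes 10 were measured, the 3 members included. Of these, 8 (80%) were above the limit on all arrays, against 38.5% of 8251 named genes. The count was 4 of 10 with the limit at the 95th percentile, against 29.4% of named genes, and 6 of 10 with the probe sets of a gene averaged. Besides Grm6, the list members Gng13, Rgs9bp, Ric8b, Nyx, Gpr179, Lrit3 and Lrit1 lack a named probe set here. Gnao1, the Go alpha subunit that mGluR6 couples to and that is made in many neurons, read 3887, 6912 and 6382 on its brightest probe set. It was lowest in pool 1 like Pcp2, but highest in pool 2. Its other 4 probe sets ranged from 34.4 to 752.8, and 1 of them, with the _f_at suffix of sets that may match relatives, was above the limit on all arrays. Gnb3, the beta subunit of ON bipolar cells and cones, read 5092, 5047 and 6703.

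The regulators that switch Go off were measured too. Rgs7, which with Rgs11 speeds the switching off of Go in ON bipolar dendrites, read 477.8, 519.1 and 520.8. This was the narrowest range of the 8 cascade genes above the limit, 1.09-fold, and its SD of log2 signal was 0.07. Rgs11 read 402.9, 504.1 and 685.3, in the order of Pcp2 and with a range of 1.70-fold, while its second probe set, between 17.8 and 19.2, was not above background. Gnb5, the obligate partner of both regulators, read 892.7, 831.0 and 1701.9, a range of 2.05-fold with pool 3 the highest. Dag1, dystroglycan, a component of photoreceptor synapses, ran otherwise, at 1257.5, 527.2 and 859.8, and its second probe set was not above background. Dmd, dystrophin, was above the limit on no array. Of the 10 measured cascade genes, 6 had their highest deposited signal in pool 3, and pool 1 gave the lowest for 5. Among the 8 above the limit on all arrays, 5 were highest in pool 3, against 30.5% of named genes above it on all arrays. Of these 8, 4 were lowest in pool 1, for which no share over named genes was counted. Quantile scaling put Gnb3 lowest in pool 1 as well. A range over 2-fold was seen for 3 of the 8 above the limit on all arrays, Pcp2, Gnb5 and Dag1, against 6.97% of named genes above it on all arrays. The median SD of log2 signal of the 8 was 0.42.

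Transcription factors with roles in bipolar cell formation were measured as well, and their orders over the pools differed. Of 17 listed genes 8 were measured, and 5 of them were above the limit on all arrays, against 38.5% of named genes. Of the 8, 5 were lowest in pool 3 and 3 were highest there. The 5 lowest in pool 3 are those above the limit on all arrays. A gene low in pool 1 and high in pool 3 can miss the limit for that reason, so no share is read from them. Isl1, a homeodomain factor of ON bipolar, ganglion and amacrine cells, read 1516.0, 1680.7 and 707.4, a range of 2.38-fold. Prdm1, which keeps photoreceptor precursors from becoming bipolar cells, read 903.7, 760.4 and 470.7. Neurod4, a bHLH factor that acts in bipolar cell formation, read 4106, 3745 and 2848. The nuclear factor I genes Nfib and Nfix, made in late progenitors, glia and neurons, read 795.5, 711.3 and 586.2 for Nfib and 1488.7, 764.1 and 702.1 for Nfix. A second Nfib probe set, at 451.1, 535.1 and 488.3, had another order and was lowest in pool 1. Sebox read 70.5 and 118.7 in pools 1 and 2, not above background, and 545.3 in pool 3. Zbtb20 read 326.9, 455.6 and 489.5 and was above the limit in pools 2 and 3. As read, both ran in the order of the Pcp2 _r_at set. Nfia was above the limit on no array. Vsx1, Otx2, Bhlhe22, Bhlhe23, Prdm8, Irx5 and Irx6 lack a named probe set here as well.

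**Figure D4:**
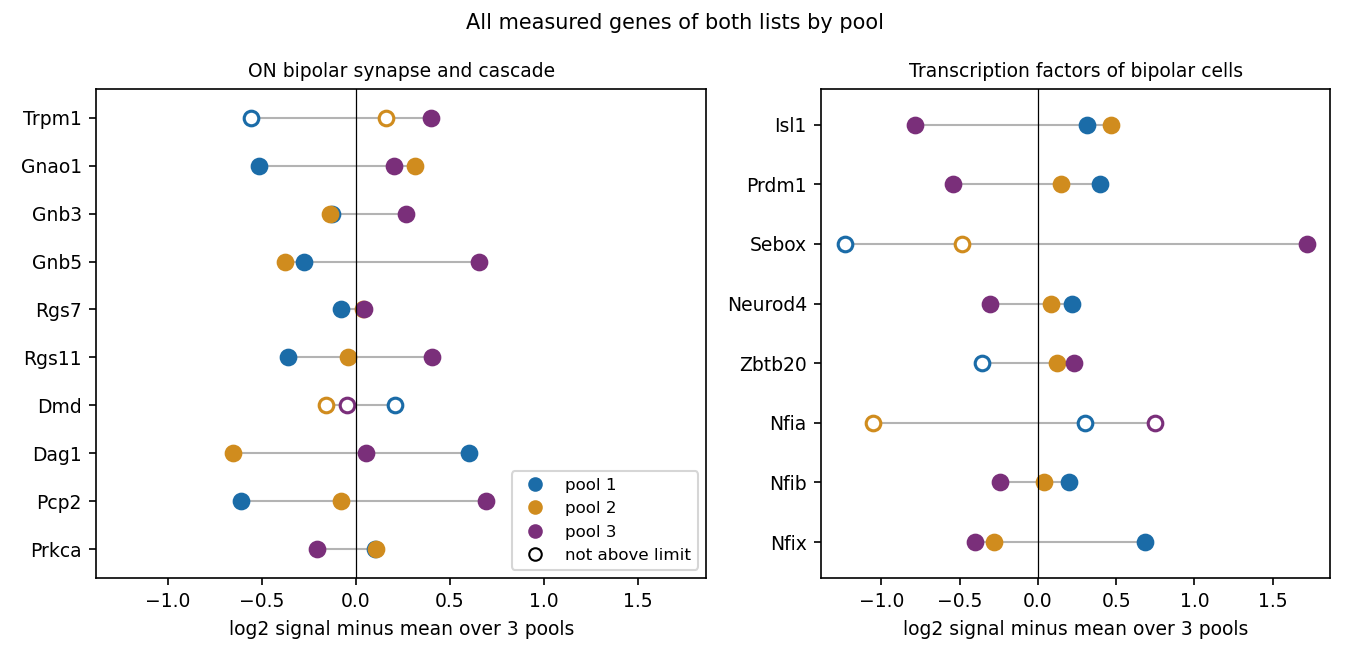
Log2 signal minus its mean over the 3 pools for all 10 measured genes of the ON bipolar synapse and cascade (left) and all 8 measured transcription factors (right), with open circles for signals not above the background limit. Pool 3 is the highest for 6 of the 10 cascade genes and for 3 of the 8 factors, and the lowest for 1 and 5. These counts include genes not above the limit on all arrays. Of named genes above it on all arrays, 30.5% were highest in pool 3.

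Other genes of bipolar cells were measured in part. Of 18 listed 8 were measured. Of these, 2 (25%, against 38.5% of named genes) exceeded the limit on every array, and 3 did so nowhere, against 44.5%. Gabrr1, a subunit of the GABA receptors on bipolar axon terminals, read 586.4, 633.3 and 884.0, while its partner Gabrr2 was not above background. Rcvrn, recoverin, made in photoreceptors and in some cone bipolar cells, read 3146, 2429 and 8726. Glra1, a glycine receptor subunit, was above the limit in pools 1 and 2 and not in pool 3, at 519.3, 676.9 and 209.3. Car8, which like Pcp2 is abundant in Purkinje cells, read 297.6, 347.3 and 350.5. Its signals in pools 2 and 3 were nearly equal, and it was above the limit only in pool 3, where the limit was lowest. Lhx3, a homeodomain factor, was above it in pools 1 and 3. Grik1, a kainate receptor subunit of OFF bipolar cells, and Syt2, a synaptotagmin of some bipolar types, were not above background on any array.

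Among relatives, partners and substrates of PKC alpha, 7 of 14 measured genes exceeded the limit on every array, against 38.5% of named genes, and 6 did so nowhere, against 44.5%. Of the isoforms, Prkcb, the other conventional kinase measured and one made in several retinal neurons, read 1698.0, 1512.8 and 2349.3 on its brighter probe set. Its second set was not above background. Prkcd, a calcium-independent isoform, read 666.0, 611.9 and 726.2, and Prkcz, an atypical isoform, read 700.0, 581.1 and 567.6. A second Prkcz set, at 540.4, 492.3 and 716.4, was highest in pool 3 instead. The range of these 3 isoforms was 1.55-fold, 1.19-fold and 1.23-fold, beside 1.24-fold for Prkca. Prkce, Prkch, Prkcq, Prkci and the related Prkd1 were above the limit on no array.

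Of 5 measured substrates of the kinase, 4 were above the limit on all arrays, against 38.5% of named genes. Marcks, a membrane-bound substrate that binds actin and phosphoinositides, read 4592, 3872 and 3001, and its relative Marcksl1 read 5908, 4050 and 2939. Both were highest in pool 1 and lowest in pool 3, as was the Prkcz set given first, which median scaling put lowest in pool 2. Gap43, a growth cone substrate, read 1229.9, 1780.5 and 1169.4, and Add1, adducin, read 3430, 2005 and 3117. Pick1, which binds PKC alpha through its PDZ domain, read 525.4, 353.8 and 464.6 and was not above the limit in pool 2. Nrgn, neurogranin, was above it on no array.

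**Figure D5:**
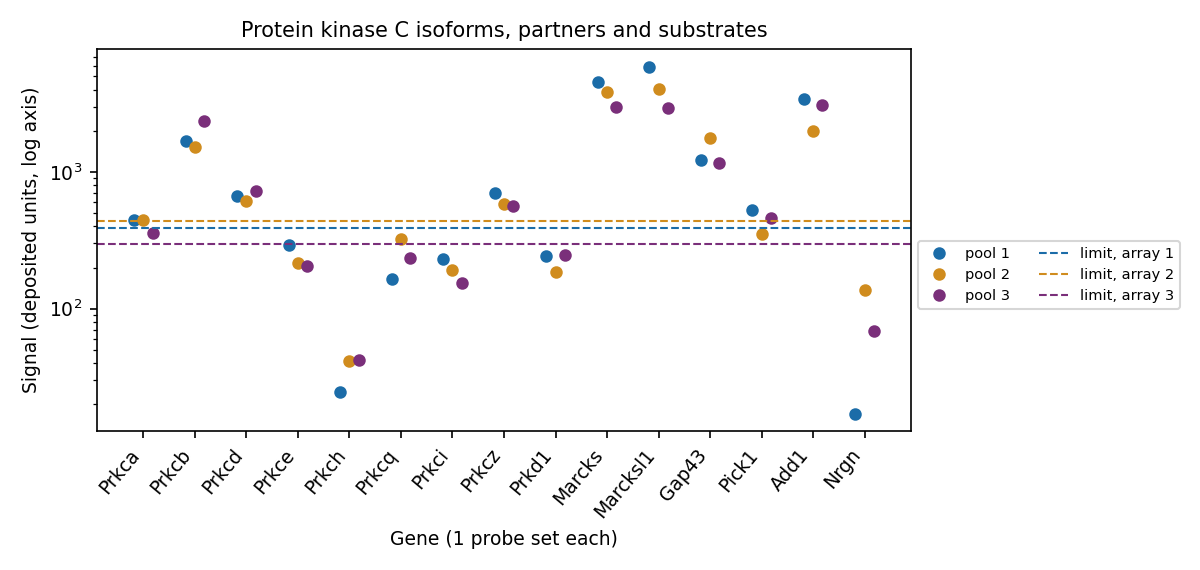
Signal (deposited units, log axis) in pools 1, 2 and 3 of 15 genes of the protein kinase C family, its partners and substrates, 1 probe set each, with the background limit of each array as a dashed line. Prkca lies at the limits with 442.6, 442.9 and 356.7, Prkcb lies above them, and Marcks and Marcksl1 lie far above them.

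Pcp2 shares its GoLoco domain with few other proteins. Of 12 listed GoLoco proteins and Gi and Go alpha subunits 10 were measured, Pcp2 included, and 6 were above the limit on all arrays, against 38.5% of named genes. Rgs14, which joins an RGS and a GoLoco domain, read 637.1, 455.5 and 375.3, and Rap1gap, whose longer form holds a GoLoco domain, read 1641.2, 1271.6 and 1994.2. Gpsm3 was above the limit on 2 arrays and Gpsm1 on none. Of the alpha subunits that GoLoco domains bind, Gnai2 read 8536, 7972 and 9854 on a probe set with the same _f_at suffix, lowest in pool 2. Its other sets read 568.7, 1228.9 and 953.8, and 2244.9, 2442.6 and 2482. Both were above the limit on all arrays and lowest in pool 1. Gnai3 read 2793.6, 1967.2 and 1274.3, a range of 2.19-fold with pool 3 the lowest, the reverse of Pcp2. Gnaz read 411.9, 378.4 and 1007.9 and was not above the limit in pool 2, and Gnai1 was above it in pool 3 only.

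None of the 7 measured TRP channel genes was above the limit on all arrays, against 38.5% of named genes. Trpm1, above it in pool 3, was the only 1 of them to exceed it anywhere. Trpm7, a ubiquitous channel kinase, read 200.1, 80.4 and 250.6. Trpc1 read 362.7, 165.0 and 208.9, and Trpv2 read 342.0, 207.3 and 220.3. Trpc4, Trpc5 and Trpc6 were at 292.3 or less in every pool.

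Genes with the profile most like that of each member were sought among 4326 probe sets of 3840 genes whose mean signal exceeded the mean limit, by Euclidean distance between log2 deviations over the 3 pools. With 3 pools a profile has few degrees of freedom, so the names are only a description. For the Pcp2 _r_at set, 2 genes lay within a distance of 0.1. They were Syk, a cytoplasmic tyrosine kinase, at 458.9, 632.3 and 1103.4, and Amy1, an amylase gene, at 249.2, 347.5 and 620.7, both at a distance of 0.050. Amy1 was not above background in pools 1 and 2. Fam3c, Serpinh1 and Adam28 followed at 0.104, 0.106 and 0.107. For Trpm1, 17 genes lay within 0.1, led by Cdip1 at 0.033, Timp1, an inhibitor of metalloproteinases, at 0.040, Pak1ip1 at 0.045, Lgalsl at 0.046 and Fahd1 at 0.054. Cdip1 and Fahd1 were, like Trpm1, not above background in pool 1.

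For Prkca, whose profile was nearly flat, 159 genes lay within 0.1. The closest were Minpp1, an inositol phosphate phosphatase, and Psenen, a gamma-secretase subunit, both at 0.013, then Krr1 at 0.015, Gphn, the scaffold of inhibitory synapses, at 0.016 and Tbc1d14 at 0.019. For the Pcp2 _at set, not above background, 126 genes lay within 0.1, with Nfib at 0.003, Golga4 at 0.010, Fdps and Mapk6 at 0.017 and Prpf6 at 0.023. A narrow profile thus had many neighbours and the wide profile of the Pcp2 _r_at set few.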

How the data were processed

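The deposited table gives 1 linear intensity per probe set and array, 12488 in all, never negative. The software and steps by which the authors made these intensity values are not stated in the labels or the table. Means after trimming 2% at each end were 499.9, 499.8 and 499.9 over all 12488 probe sets, controls included. They lay within 5% of each other, so values were used as deposited. Medians over probe sets that are not controls were 234.6, 254.3 and 243.4, which span 0.12 on the log2 scale. Log2 correlations across probe sets were 0.90, 0.88 and 0.87 (Pearson's r) between pools 1 and 2, 1 and 3, and 2 and 3, and no pair of arrays was a duplicate. With 3 arrays, their number limits the precision.

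Symbols came from GEO's platform annotation, and for 10817 probe sets the Entrez number led to a current RefSeq symbol. Apart from 66 control probe sets, 10833 had 1 symbol, 396 several and 1193 none. A gene was represented by its brightest probe set. Signals below 1 were set to 1 before log2. No genome build is given for the table, and coordinates belong to the RefSeq promoter table.

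Named genes are the members, all measured genes of the 6 lists on bipolar cells, protein kinase C, GoLoco proteins and TRP channels, up to 4 leading genes of 5 lists of other cells and synapses, and the 5 nearest profiles. Some further genes of the other lists are named where scaling changed their order or where they complete a statement, and these were chosen after their values were seen. The members and lists were chosen with earlier results of these data known. The search for similar profiles was tested on simulated data. Alternatives were median and quantile scaling, limits at the 75th and 95th percentiles, averaged or plain _at probe sets, and each pool left out. Python 3.11.15, numpy 2.4.6 and pandas 2.3.3 were used.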

Additional observations from a re-analysis of the deposited data

How the results depend on the processing

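Where the background limit was set mattered most. With the limit at the 75th percentile (179.6, 209.9 and 194.5 on arrays 1 to 3) 4 member probe sets were above it on all arrays, and with the 95th percentile (499.6, 615.6 and 487.8) 1 was, against 2 at the 90th. Of the cascade genes, 4 were above it on all arrays at the 95th percentile, against 8. Leaving out each pool in turn gave a range of 1.45-fold to 2.47-fold for the Pcp2 _r_at set, lowest without pool 3, 1.18-fold to 1.94-fold for Trpm1, lowest without pool 1, 1.0007-fold to 1.24-fold for Prkca and 1.12-fold to 1.35-fold for the Pcp2 _at set, both lowest without pool 3. A range over fewer pools cannot be wider, by construction. Median and quantile scaling kept the Pcp2 _r_at set and Trpm1 lowest in pool 1 and highest in pool 3, with ranges of 2.38-fold and 2.44-fold for the Pcp2 _r_at set. Under both, Prkca was highest in pool 1 in place of pool 2. Over all results and alternatives, 137 values stayed within their spread or within 1.5 times the count, and 13 did not. The 137 include the mean signals with a pool left out, which cannot leave that spread, by construction. They also include the nearest profiles under median scaling. Apart from signals set to 1, median scaling leaves the distances between profiles unchanged, by construction. It can change only which probe sets have a mean above the mean limit and so are searched. No paired analysis was possible because the labels give a single group and no replicate numbers.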
